A study of Caenorhabditis elegans with 6 samples.

Results

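The centromere and kinetochore genes described here are *hcp-1*, *hcp-3*, *hcp-4*, *cpar-1*, *knl-1*, *knl-2*, *knl-3*, *ndc-80*, *him-10* and *mis-12*. They were picked by name from the 20240 gene models of the deposited matrices, which hold all 10 of them, and the rule used no measured value. RNA was sequenced from the P1 and AB cells of wild-type N2 *C. elegans* embryos at the 2-cell stage, from worms grown at 20°C. P1 is the smaller, posterior cell that goes on to make the germline, and AB is the larger, anterior cell that makes only somatic tissue. There were 3 P1 libraries and 3 AB libraries, each made from pooled cells, and the P1 and AB libraries of one replicate number, made from matched cells, form a pair. The RNA was amplified by *in vitro* transcription from an oligo-dT primer before sequencing (RNA-amp-seq), and reads were counted per gene model.

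The kinetochore is the protein assembly on each chromosome that binds spindle microtubules in mitosis. In *C. elegans* the chromosomes are holocentric, so that the kinetochore forms along their whole length and not at a single centromere. It is built in layers on nucleosomes that carry the histone H3 variant CENP-A, with CENP-C next, then the KNL-1, MIS-12 and NDC-80 complexes that hold microtubules, and an outer corona. The oocyte supplies these mRNAs to the embryo, which divides rapidly before its own transcription becomes widespread, and in the 2-cell embryo AB enters mitosis before P1.

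The files give each gene as raw reads and as normalized read counts, which are raw reads divided by 1 size factor for each library. The libraries held 21249850 to 26237094 counted reads for P1 and 26971551 to 35591254 for AB, so that 3 reads correspond to between 0.0843 and 0.141 CPM. The 10 genes had between 439 and 17588 raw reads in a library and all passed the filter for present genes and lay far above that floor. Of the 18 marker genes chosen to check the cells, 17 were found in the files. The AB marker *mex-3* was lower in P1 (log2 fold change -0.98, adjusted p = 0.0675 with edgeR). The genes taken as P1 markers, *pos-1*, *nos-2* and *cey-2*, had log2 fold changes of 0.18, 0.40 and 0.47 that did not pass the test. The paper too found *pos-1* and *cey-2* higher in P1 without meeting its threshold. In the paper, *cey-2* mRNA appears uniform early in the stage sampled and P1-enriched later in it. The paper places the loss of *nos-2* mRNA from somatic cells at a later stage. *nos-2* and *cey-2* therefore check the cells only weakly. Markers of maternal intestine, muscle, hypodermis and sperm summed to 2.9 to 373 normalized read counts in P1 libraries and to 20.0 to 302 in AB libraries, with both libraries of pair 1 highest and the sperm genes *msp-3*, *msp-19* and *msp-142* at 0 in all 6. The part of such RNA in the results below was not tested. P1 replicate 1 stood apart from the rest. Its log2 normalized read counts over present genes correlated with those of the other P1 libraries at 0.913 and 0.924, against 0.964 to 0.972 between the other libraries of a cell. Normalized read counts are shares of a library, so that less RNA in a cell and a smaller share of that RNA cannot be told apart.

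Between P1 and AB, 1 of the 10 genes passed the test and the other 9 did not. The gene that passed was *cpar-1*, which was P1-enriched 3.35-fold. The test was edgeR's quasi-likelihood test over all 13717 gene models that had a read, and a gene was called if its Benjamini-Hochberg adjusted p was under 0.10 and it was present. Called P1-enriched genes made up 0.496% of the gene models tested and called AB-enriched genes 0.35%, against 1 and 0 of the 10 genes here. Only present genes could be called, as all 10 genes here were, and these calls were 68 and 48 of the 7945 present genes. At an unadjusted p under 0.05 edgeR had 2 of the 10, *cpar-1* and *hcp-4*, beside 1085 of the 13717 gene models and 826 of the 7945 present genes. DESeq2 called 1 of the 10, beside 170 gene models in all. Of the remaining 9 genes, 8 had a fold change below 0 on the log2 scale, none of them called. Among all present genes, 48.7% had a fold change below 0. The median log2 fold change (P1 over AB) of the 10 genes was -0.31, and it was 0.01 over the 7945 present genes. This value rested largely on P1 replicate 1: without it the medians were -0.11 over the 10 genes and -0.02 over the present genes, and *hcp-3*, *knl-2* and *him-10* changed sign.

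**Figure D1:**
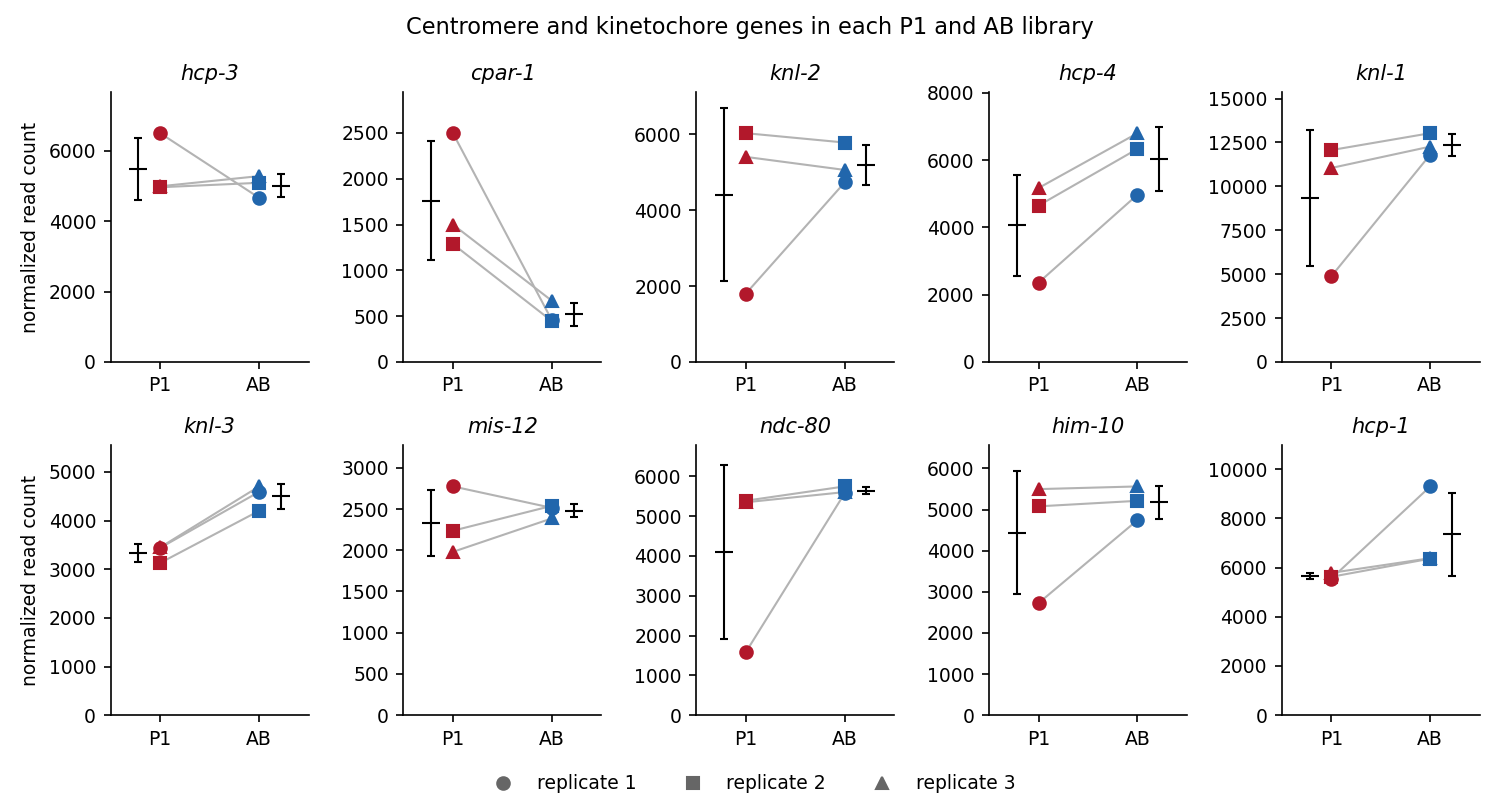
Normalized read counts (vertical axis, a separate scale for each gene that starts at 0) of the 10 genes in the 3 P1 libraries (red, left) and the 3 AB libraries (blue, right), with grey lines joining the libraries of a pair and black bars for the mean and SD of each cell (n = 3). *cpar-1* lies at 1287 to 2497 in P1 and at 445 to 667 in AB, whereas in *knl-2*, *knl-1*, *ndc-80*, *him-10* and *hcp-4* the circle of P1 replicate 1 lies far below the other 5 libraries.

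The centromere layer held the called gene, *cpar-1*, next to its paralog *hcp-3*, which was not called. *hcp-3* (chromosome III, 9615228 to 9616382 in ce10, minus strand) encodes CENP-A, the histone on which the kinetochore is built, and *cpar-1* encodes a second, closely related CENP-A-like histone. *cpar-1* had 2497, 1287 and 1499 normalized read counts in P1 replicates 1, 2 and 3, against 454, 445 and 667 in AB replicates 1, 2 and 3. All 3 P1 values thus lay above all 3 AB values, as for 4.45% of the gene models tested and 564 of the 7945 present genes. The mean was 1761 ± 646 in P1 and 522 ± 126 in AB (SD, n = 3 each), and the log2 fold change was 1.74 (95% confidence interval 1.16 to 2.33, adjusted p = 0.000956 with edgeR). The log2 ratio within a pair was 2.46, 1.53 and 1.17 in pairs 1, 2 and 3, so that pair 1 showed the largest difference. Without P1 replicate 1 the log2 fold change was 1.39 and *cpar-1* was still called, as in each of the 9 leave-one-out fits (3 without a pair and 6 without a single library).

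*hcp-3* did not follow its paralog. It had 6504, 4966 and 4993 normalized read counts in P1 replicates 1, 2 and 3, against 4666, 5093 and 5283 in AB replicates 1, 2 and 3. Apart from P1 replicate 1, the highest of all, the libraries of the 2 cells overlapped. Its log2 fold change was 0.12 (95% confidence interval -0.34 to 0.58, adjusted p = 0.876 with edgeR), and it was -0.03 without P1 replicate 1.

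Because both genes encode a CENP-A-like histone, the reads of *cpar-1* were also expressed as a share of the reads of both, which does not depend on the scaling between libraries. The share was 27.7%, 20.6% and 23.1% in P1 replicates 1, 2 and 3, against 8.86%, 8.04% and 11.2% in AB replicates 1, 2 and 3. The Wilson 95% intervals ran from 19.5% to 28.8% across the P1 libraries and from 7.44% to 11.97% across the AB libraries. They leave out the spread between libraries. They also treat reads as independent molecules, which amplified reads are not, so they can be too narrow even for counting error. The means were 23.8 ± 3.63% in P1 and 9.37 ± 1.65% in AB (SD, n = 3 each), and the difference was 14.4 percentage points, with 11.9 to 18.9 within the pairs. The exact two-sided permutation test over the 6 libraries gave p = 0.1, which is the smallest that 3 against 3 libraries allow. *hcp-3* therefore kept most of the CENP-A reads in both cells, and *cpar-1* held a larger minority of them in each P1 library than in any AB library.

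**Figure D2:**
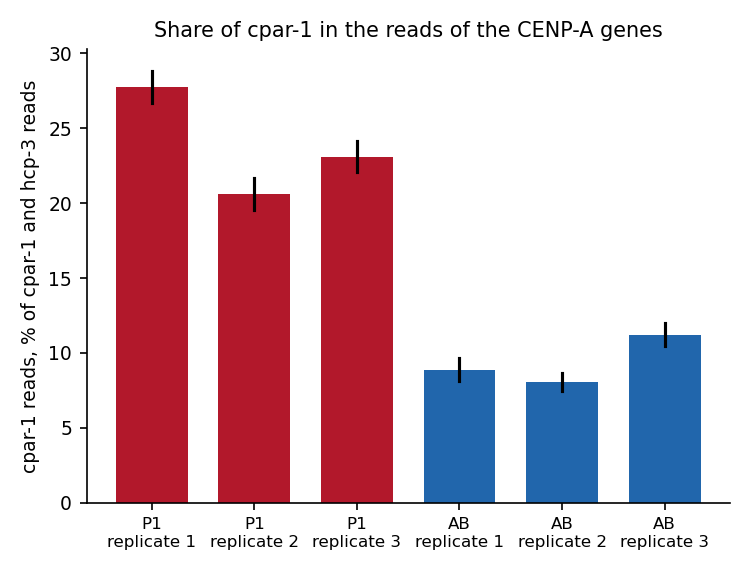
Share of *cpar-1* in the summed reads of *cpar-1* and *hcp-3* (percent, axis from 0) in each P1 library (red, left) and each AB library (blue, right), with black lines for Wilson 95% intervals. The 3 P1 bars stand at 20.6 to 27.7%, and the 3 AB bars at 8.04 to 11.2%.

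The count of *cpar-1* carries 2 limits. How reads that match both paralogs were treated is not given in the sources used here. In addition, the files list *cpar-1* (plus strand) at an interval of chromosome III, 9433990 to 9441376, that they also give for *emb-30* on the minus strand and for F54C8.1, which had 1 read in the 6 libraries together. Use of strand in the counting is not stated either, so that reads of *cpar-1* and *emb-30* may not have been fully separated where the genes overlap. *emb-30*, which encodes a subunit of the anaphase-promoting complex, had 2475, 5257 and 4962 normalized read counts in P1 replicates 1, 2 and 3, against 3180.3, 3625 and 3599 in AB replicates 1, 2 and 3. Its log2 fold change was 0.28 (adjusted p = 0.746 with edgeR), and P1 replicate 1 was the lowest library for *emb-30* and the highest for *cpar-1*. Without P1 replicate 1 *emb-30* had a log2 fold change of 0.54 and was called (adjusted p = 0.0277 with edgeR), as it was without pair 1. Over the 9 leave-one-out fits the value ran from 0.07 to 0.54. The fits without P1 replicate 1 and without pair 1 called 534 and 532 gene models in all, against 116 with all 6 libraries.

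The other centromere genes were *knl-2*, whose product is needed to load CENP-A onto chromatin, and *hcp-4*, which encodes CENP-C. *knl-2* (chromosome I, 6460435 to 6464265) had 1796, 6029 and 5404 normalized read counts in P1 replicates 1, 2 and 3, against 4731, 5782 and 5059.8 in AB replicates 1, 2 and 3. One P1 library lay far below the AB range and another above it. A log2 fold change of -0.24 (adjusted p = 0.775 with edgeR) became 0.12 without P1 replicate 1. *hcp-4* (chromosome I, 3862778 to 3865941, minus strand) had 2354, 4646 and 5168 normalized read counts in P1, against 4971, 6332 and 6799 in AB, in the order of the replicates. P1 was lower in each pair, with log2 ratios of -1.08, -0.45 and -0.40, but the highest P1 library exceeded the lowest AB library. Lower values in every pair occurred for 6 of the 10 genes and for 1698 of the 7945 present genes. With a log2 fold change of -0.58 (95% confidence interval -1.11 to -0.04), *hcp-4* had the lowest fold change of the 10 genes and an unadjusted p of 0.0362, but an adjusted p of 0.580 with edgeR. It was called only when both libraries of pair 1 were left out (log2 fold change -0.43, adjusted p = 0.0908 with edgeR). That fit called 532 gene models in all, against 116 with all 6 libraries. Without P1 replicate 1 alone the log2 fold change of *hcp-4* was -0.32 (adjusted p = 0.460 with edgeR).

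The genes of the outer kinetochore all had log2 fold changes below 0, between -0.46 and -0.10, and none was called. Of the present genes, 48.7% had a fold change below 0. Among them, *knl-3* (chromosome V, 1869213 to 1870549), which encodes a subunit of the MIS-12 complex, differed most evenly. *knl-3* had 3438, 3128 and 3447 normalized read counts in P1 replicates 1, 2 and 3, against 4590, 4199 and 4701 in AB replicates 1, 2 and 3. All P1 values lay below all AB values, as for 5.85% of the gene models tested and 700 of the 7945 present genes, and here for 3 of the 10 genes. The log2 ratios in the pairs were -0.42, -0.42 and -0.45 (SD 0.016). The log2 fold change was -0.44 (95% confidence interval -0.88 to 0.01, adjusted p = 0.647 with edgeR). In the fits without P1 replicate 1 and without pair 1, *knl-3* was called, at log2 fold changes of -0.48 and -0.44 (adjusted p = 0.0882 and 0.0811 with edgeR). Those fits called 534 and 532 gene models in all, against 116 with all 6 libraries. The fold change of *knl-3* thus lay within the same narrow range, from -0.48 to -0.40, in all 18 alternative settings of the fit (block, tool, scaling, filter, threshold, length and leave-one-out). The test passed in 2 of them.

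*mis-12* (chromosome I, 3604524 to 3605760, minus strand), whose product gives that complex its name, had no call and overlapping libraries. It had 2774, 2237 and 1980.3 normalized read counts in P1 replicates 1, 2 and 3, against 2514, 2539 and 2386 in AB replicates 1, 2 and 3. This gave a log2 fold change of -0.10 (95% confidence interval -0.56 to 0.36, adjusted p = 0.911 with edgeR), which depended on P1 replicate 1, the highest library. It was -0.26 without that library and -0.32 with the trend on transcript length described further on removed, and *mis-12* was called in neither fit. Reads per kilobase of *knl-3* over those of *mis-12* gave 0.706, 0.797 and 0.992 in the P1 libraries and 1.04, 0.943 and 1.123 in the AB libraries, so that the 2 cells overlapped in this ratio.

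*ndc-80* (chromosome IV, 10086114 to 10088455) and *him-10* (chromosome III, 5803215 to 5805057) encode the NDC-80 and Nuf2 subunits of the complex that contacts microtubules directly. *ndc-80* had 1578, 5386 and 5347 normalized read counts in P1 replicates 1, 2 and 3, against 5574, 5745 and 5603 in AB replicates 1, 2 and 3. The P1 values all lay below the AB values, but pairs 2 and 3 differed by only -0.09 and -0.07 on the log2 scale and pair 1 by -1.82. The log2 fold change of -0.46 (adjusted p = 0.695 with edgeR) was accordingly -0.10 without P1 replicate 1. *him-10* had 2724, 5078 and 5497 normalized read counts in P1, against 4744, 5212 and 5562 in AB, in the order of the replicates. Here again P1 replicate 1 was the low library, and the log2 fold change was -0.23 with it and 0.01 without it (adjusted p = 0.772 and 0.999 with edgeR). Per kilobase, *ndc-80* over *him-10* stood at 0.484, 0.886 and 0.813 in the P1 libraries and at 0.982, 0.921 and 0.842 in the AB libraries, so that the transcripts of these partners were at like levels except in P1 replicate 1.

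*knl-1* (chromosome III, 8250565 to 8254251) encodes the large scaffold that joins these complexes and docks checkpoint proteins. It had 4874, 12064 and 11046 normalized read counts in P1 replicates 1, 2 and 3, against 11809, 13029 and 12264 in AB replicates 1, 2 and 3. P1 replicates 2 and 3 were close to the AB libraries and P1 replicate 1 was far below them. The log2 fold change of -0.41 (95% confidence interval -0.97 to 0.15, adjusted p = 0.695 with edgeR) was -0.12 without that library.

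In the corona, *hcp-1* (chromosome V, 6594209 to 6599123) encodes a CENP-F-like protein that recruits the microtubule regulator CLS-2 to kinetochores. *hcp-1* had 5549, 5624 and 5784 normalized read counts in P1 replicates 1, 2 and 3, against 9298, 6362 and 6380.5 in AB replicates 1, 2 and 3. P1 was below AB throughout, and the spread lay in AB, where replicate 1 was the high library. For *hcp-1* the log2 fold change was -0.38 (95% confidence interval -0.85 to 0.09, adjusted p = 0.686 with edgeR) and the log2 ratios in the pairs were -0.74, -0.18 and -0.14. It was -0.20 without AB replicate 1, -0.17 without pair 1 and -0.07 with the length trend removed (adjusted p = 0.873, 0.949 and 0.938 with edgeR). With its paralog *hcp-2*, which was added to the named genes after its values were seen, the ratio of reads per kilobase (*hcp-1* over *hcp-2*) was 0.883, 0.451 and 0.528 in the P1 libraries and 0.660, 0.501 and 0.479 in the AB libraries, without separation of the cells.

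**Figure D3:**
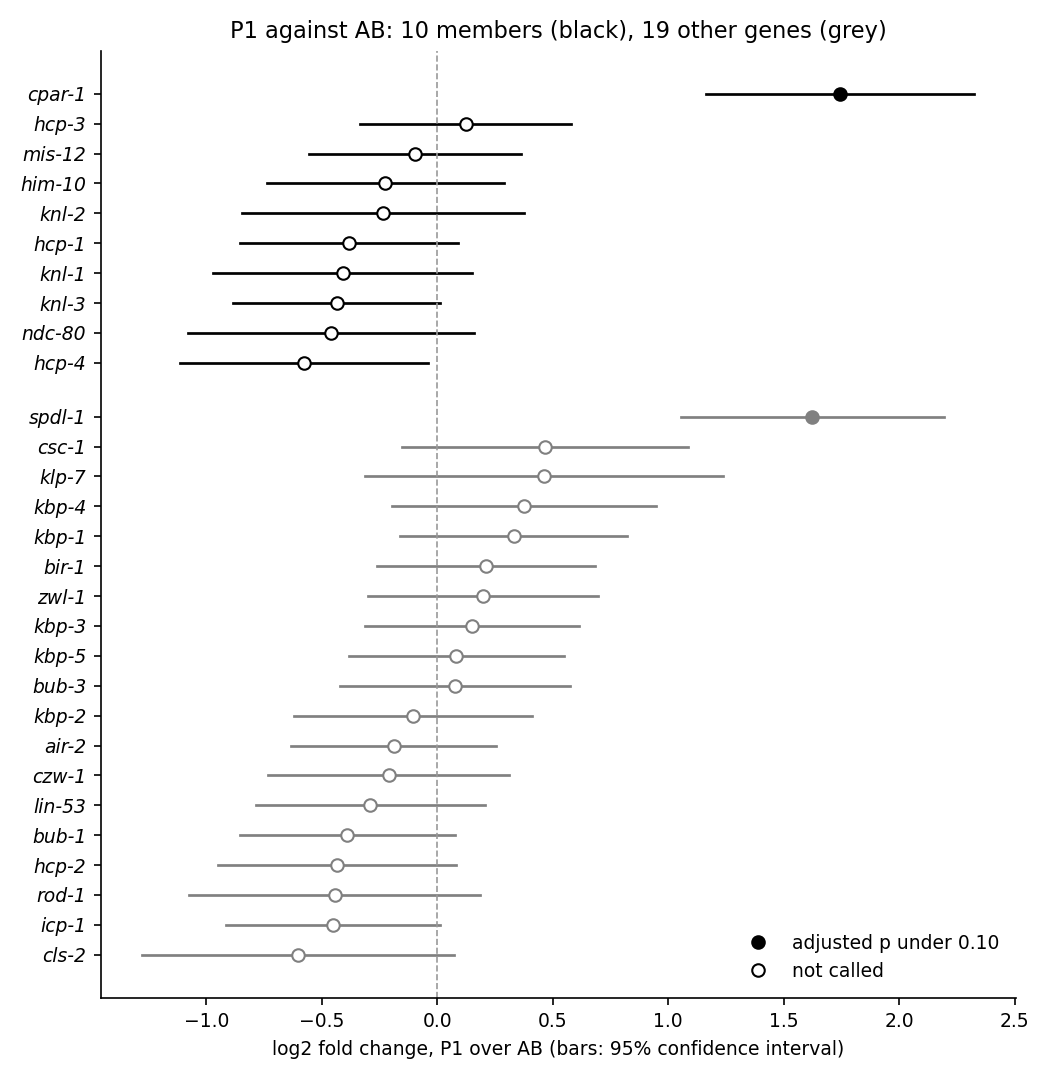
Log2 fold change of P1 over AB with 95% confidence intervals from edgeR (horizontal axis) for the 10 genes (black, above) and 19 other centromere and kinetochore genes (grey, below), filled where the adjusted p was under 0.10. *cpar-1* at 1.74 and *spdl-1* at 1.62 are the only filled points, and the others lie between -0.60 and 0.47.

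Compared per length, the 10 genes spanned about a 4-fold range of mean level over the 6 libraries. *hcp-3* was highest, with 5178 ± 637 normalized read counts per kilobase of spliced transcript (SD, n = 6), above 89.6% of the present genes, and its lowest library (4602) exceeded the highest library of the next gene, *knl-1* (4290.0). Below it came *knl-1* (3572), *mis-12* (3431), *knl-3* (3185), *him-10* (3009) and *ndc-80* (2551), followed by *hcp-4* (1866), *knl-2* (1634), *hcp-1* (1393) and *cpar-1* (1273), each in normalized read counts per kilobase. None of these neighbours in the order was separated from the next beyond the spread of the libraries. *him-10* was nevertheless above *ndc-80* in 6 of 6 libraries. By cell, *cpar-1* ranked 7 of 10 in P1, at 1963 ± 720 normalized read counts per kilobase, and 10 of 10 in AB, at 582 ± 140 (SD, n = 3 each), while *hcp-3* ranked first in both, at 5412 ± 868 in P1 and 4945 ± 312 in AB. Amplification from the poly(A) tail can cover long transcripts unevenly, so levels per kilobase are approximate.

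**Figure D4:**
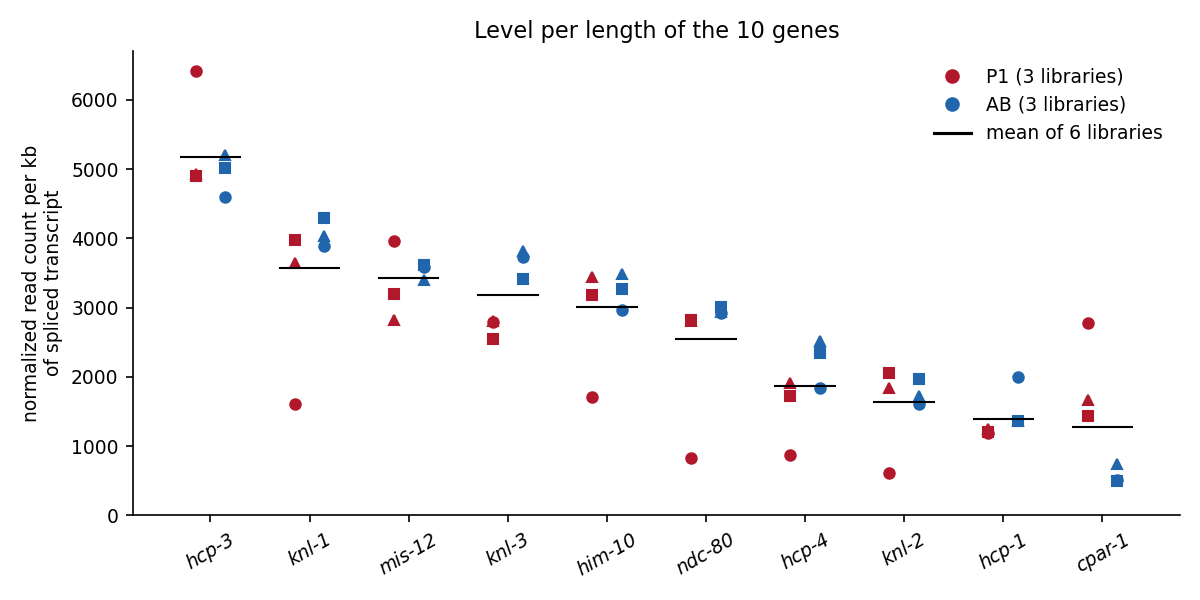
Normalized read counts per kilobase of spliced transcript (vertical axis, from 0) for the 10 genes in order of their mean over 6 libraries (black lines), with P1 in red to the left and AB in blue to the right of each gene, and circles, squares and triangles for replicates 1, 2 and 3. *hcp-3* lies above all others with a mean of 5178, and *cpar-1*, lowest with 1273, is the gene whose P1 points all stand above its AB points.

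Much of the spread among the P1 libraries came from 1 library. P1 replicate 1 was the lowest of all 6 libraries for 6 of the 10 genes. Relative to the mean of P1 replicates 2 and 3 it held 29.4% for *ndc-80*, 31.4% for *knl-2*, 42.2% for *knl-1*, 48.0% for *hcp-4* and 51.5% for *him-10*, but 131% for *hcp-3*, 132% for *mis-12* and 179% for *cpar-1*. Summed over the 10 genes, the normalized read counts were 34088, 50445 and 50167 in P1 replicates 1, 2 and 3, against 53351, 54738.5 and 54706.5 in AB replicates 1, 2 and 3. The AB sums were therefore nearly equal, and P1 replicates 2 and 3 were somewhat below them.

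These differences went with transcript length. The 5 genes at 29.4 to 51.5% have spliced lengths of 1596 to 3037 bases, and the 3 at 131 to 179% have 701 to 1014 bases, but *hcp-1*, the longest with 4666 bases, was at 97.3%. The log2 ratio within pair 1 fell with spliced length over the 10 genes (Spearman's rho -0.70, n = 10 genes of the same 2 libraries, which are not independent), whereas rho was -0.15 in pair 2 and -0.04 in pair 3. Over 7806 present genes with a known length, rho was -0.52, -0.04 and 0.04 in pairs 1, 2 and 3. In P1 replicate 1 the smoothed log2 ratio to the mean of all libraries was 0.70 at a length of 500 bases, 0.27 at 1000, -0.22 at 2000 and -0.52 at 4000 bases. In AB replicate 1, its partner in pair 1, the ratio ran the other way, at -0.32, -0.09, 0.11 and 0.26. The remaining libraries lay between -0.23 and 0.097 at these lengths. When each library's own trend was removed, an alternative added after the data were seen, the log2 fold change of *cpar-1* was 1.58 (adjusted p = 0.000731 with edgeR). No other of the 10 genes was called. The median of the 10 genes was then -0.25.

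**Figure D5:**
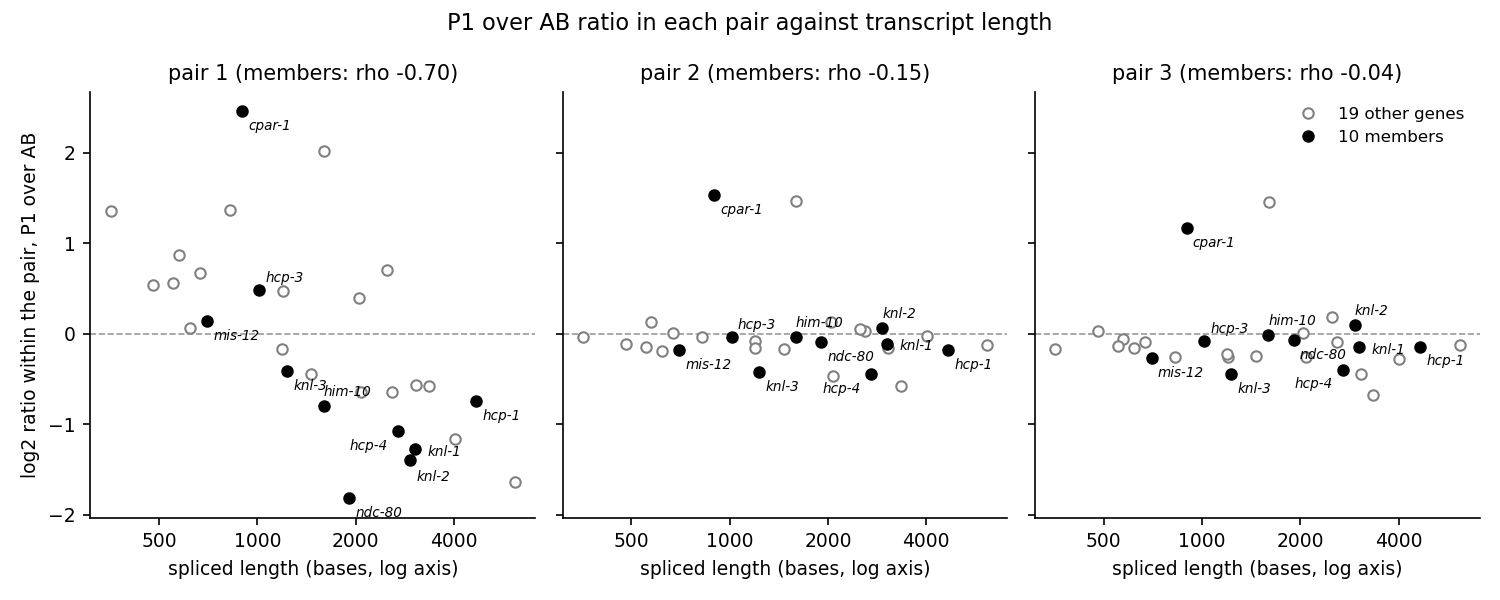
Log2 ratio of P1 over AB (vertical axis) within pair 1 (left), pair 2 (middle) and pair 3 (right) against spliced transcript length in bases (log axis) for the 10 genes (black, named) and 19 other centromere and kinetochore genes (grey). In pair 1 the ratio falls with length, with rho -0.70 over the 10 genes, and in pairs 2 and 3 (rho -0.15 and -0.04) all of the 10 genes but *cpar-1* lie between -0.45 and 0.10.

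A list of 19 other centromere and kinetochore genes gave 1 call, which was P1-enriched, beside 68 such calls in the 7945 present genes. It held the partners of HCP-1, the BUB-1 kinase and BUB-3, the histone chaperone gene *lin-53*, the KNL-binding proteins, the ROD, ZW10 and Zwilch complex with Spindly, the kinesin-13 gene *klp-7* and the chromosomal passenger complex. All 19 were present. A fold change above 0 on the log2 scale was found for 10 and one below 0 for 9, where 48.7% of the present genes were below 0. The median log2 fold change of the 19 genes was 0.08. That median had no stable sign, being -0.13 without P1 replicate 1 and -0.19 with the length trend removed. The gene called was *spdl-1* (chromosome II, 7781527 to 7783295), which encodes Spindly, the adaptor that brings dynein to kinetochores. *spdl-1* had 1233, 1103 and 1252 normalized read counts in P1 replicates 1, 2 and 3, against 303, 399 and 456 in AB replicates 1, 2 and 3. The P1 libraries were alike, including replicate 1, and all lay above the AB libraries. The log2 fold change was 1.62 (95% confidence interval 1.05 to 2.19, adjusted p = 0.00182 with edgeR), the log2 ratios in the pairs were 2.02, 1.46 and 1.46, and *spdl-1* was called in each of the 9 leave-one-out fits.

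The lowest fold change of that list belonged to *cls-2*, which encodes a CLASP-family protein that acts on kinetochore microtubules and is brought there by HCP-1 and HCP-2. *cls-2* had 3219, 1388 and 1174 normalized read counts in P1 replicates 1, 2 and 3, against 4805, 2065 and 1873 in AB replicates 1, 2 and 3. Replicate 1 stood at 251% of the mean of replicates 2 and 3 in P1 and at 244% in AB, and P1 was lower in each pair, with log2 ratios of -0.58, -0.57 and -0.67. The log2 fold change was -0.60 (adjusted p = 0.674 with edgeR), and with the replicate number as a block it was -0.61 (adjusted p = 0.372 with edgeR). Without P1 replicate 1 it was -1.21 and *cls-2* was called (adjusted p = 8.75e-09 with edgeR), in a fit that still held the high AB replicate 1. Without both libraries of pair 1 it was -0.63 (adjusted p = 0.0187 with edgeR). Those fits called 534 and 532 gene models in all, against 116 with all 6 libraries. The test takes part of a gene's spread from all genes, so the small adjusted p does not rest on the *cls-2* values alone. Without AB replicate 1, in a fit that held the high P1 replicate 1, the log2 fold change was only -0.06 (adjusted p = 0.987 with edgeR). With the length trend removed it was -0.21 (adjusted p = 0.892 with edgeR).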

How the data were processed

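The authors filtered reads with Tagdust, aligned them to ce10 with TopHat 1.4.0, obtained read counts per RefSeq gene model with HTSeq 0.5.3 and deposited these raw counts. The deposited normalized counts are a signal, the raw counts over a DESeq 1.2.1 size factor per library. Present genes had a mean above 10 normalized read counts and above 0 in each cell, the rule in the R code of the paper's supplement. The paper's Methods text words the minimum differently.

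Raw counts were tested with edgeR 4.0.16 in R 4.3.3 (glmQLFit, glmQLFTest, TMM, no block) over 13717 gene models. The test was run on simulated independent counts as well. That simulation held no outlying library, no length trend and no pairing, so it cannot show how the test behaves with these features. Fold changes, intervals and p-values come from the edgeR fit to the raw counts, and levels from the normalized counts. Ratios within pairs used a pseudocount of 1. Lengths are of the longest spliced transcript in WBcel235, matched by WormBase identifier (98.3% of present genes), and interval starts were made 1-based. Python 3.11.15, numpy 2.4.6, pandas 2.3.3, scipy 1.17.1 and matplotlib 3.10.9 did the rest. DESeq2 1.42.0 and limma 3.58.1 served for alternatives or as a dependency.

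The rule for the members uses only names, but the members, the list of 19 further genes and the tests were chosen with earlier results of these data known. The text names all members, and of the further list each called gene and the highest and lowest by fold change. *hcp-2* was added as the paralog of *hcp-1* after its values were seen. *emb-30* and F54C8.1 were named because they share the listed interval of *cpar-1*.

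Each replicate pooled matched cells, as the paper's text says, so the numbers pair the libraries. Deviations from the cell mean correlated at 0.175, 0.220 and 0.173 within pairs 1, 2 and 3, and at -0.219 to 0.080 between different numbers. The paper names more than 1 sequencer and read length, which are not given per library in the sources used here. No source used here says whether the 3 pools came from separate cultures, so p-values cover no spread beyond these libraries. The edgeR test also takes part of each gene's spread from all genes, so its p-values do not measure a gene's own spread alone. For *knl-3* and *hcp-3* the SD was 5.4% and 16.0% of the mean over the P1 libraries, but the standard errors were 0.219 and 0.224. The marker *unc-54* was not analysed here.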

Additional observations from a re-analysis of the deposited data

How the results depend on the processing

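*cpar-1* stayed P1-enriched and called in all 18 alternatives, at log2 fold changes of 1.32 to 2.07 and adjusted p of 3.56e-08 to 0.0850. The lowest of these fold changes came without pair 1. The highest adjusted p-values came with only present genes fitted (0.0850 with edgeR) and with filterByExpr (0.0779 with edgeR), both above 0.05. With the replicate number as a block, 91 gene models were called in place of 116, 1 of the 10 members was called (*cpar-1*, log2 fold change 1.71, adjusted p = 0.0321 with edgeR) and 1 of the 19 other genes, so that the block changed no call among these. The number of gene models called was 52 with only present genes fitted, 53 with filterByExpr, 170 with DESeq2 and 177 with the length trend removed. Leaving out a pair or a library gave 71 to 534 calls in place of 116. Among these were 534 without P1 replicate 1, 532 without pair 1, 499 without P1 replicate 2, 284 without P1 replicate 3, 77 without AB replicate 1 and 191 without AB replicate 3. Such fits gave 1 to 3 calls among the members and 1 to 2 among the other genes. The higher numbers came only where P1 replicate 1 or pair 1 was left out. The sign changed for 4 members, none of them called, when a pair or a library was left out: the log2 fold changes then ran from -0.065 to 0.24 for *hcp-3*, from -0.56 to 0.12 for *knl-2*, from -0.26 to 0.014 for *mis-12* and from -0.40 to 0.0070 for *him-10*. The changed signs came without P1 replicate 1 (-0.034 for *hcp-3*, 0.12 for *knl-2*, 0.0070 for *him-10*), without pair 1 (-0.065 for *hcp-3*, 0.071 for *knl-2*) and without P1 replicate 3 (0.014 for *mis-12*). The causes were not tested. The share of *cpar-1* differed by 12.2 to 15.7 percentage points over its alternatives. With the shortest transcript, *mis-12* ranked 2 and *knl-1* 3 by level per kilobase, and no other rank changed. With 3 libraries a cell, 1 of them apart, an adjusted p above the threshold does not show equal levels.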
